A study of Macaca mulatta with 8 samples.

Results

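The comparison described here set retina from 2 subretinal blebs of the reporter vector AAV8-GRK1-mScarlet against 2 uninjected areas of the same eyes of NHP2, a male rhesus macaque of 6 years. Each group held 1 library of the right eye and 1 of the left eye, made by single-cell RNA sequencing of the 5′ ends of transcripts, in which a unique molecular identifier (UMI) marks each captured RNA molecule. Cells were the barcodes with at least 1500 UMIs and 300 genes, and they numbered 20834 in the blebs and 22322 in the uninjected areas, 43156 of the 91803 cells of the 8 libraries of the series. In the vector, the photoreceptor promoter GRK1 drives the red fluorescent protein mScarlet. By the study's methods, this vector was of laboratory grade, each eye of NHP2 also carried a separate bleb of AAV8-GRK1-hRPGR (codon-optimised RPGR), all eyes received periocular triamcinolone and the left eyes adalimumab into the vitreous. All 4 libraries therefore came from 1 animal, p-values measure the spread between areas and eyes of this animal only, and the bleb cannot be told apart from the position of the area in the retina.

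The right uninjected library held a transgene that its label does not name. Its cells held 9748 UMIs of the codon-optimised RPGR transgene of the other bleb, spread over 17.7% of cells, against 0 UMIs in the left uninjected library. Free RNA of that right library, measured in barcodes with 100 to 1000 UMIs, held it at 299.8 CPM (counts scaled to the total UMIs), above the 139 CPM of its cells and the 195 CPM of its rod-like cells. The share was 19.9% of rod-like and 12.2% of Müller glia-like cells (median 5528 and 5245 UMIs). Rod-like cells held 9105 of the 9748 UMIs. Their 195 CPM was the highest level of the classes, with 49.0 CPM in T/NK-like cells (4 UMIs). Müller glia-like cells held 22.0 CPM, and bipolar- and cone-like cells 18.3 CPM each. How the transgene came into this library was not tested. In the mScarlet libraries 4.27 and 0.0621 percent of cells (right and left eye) held such a UMI. Results are therefore also given without the right uninjected library.

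The retina passes light signals from rods and cones through bipolar cells to ganglion cells, whose axons leave the eye, while horizontal and amacrine cells shape these signals laterally. Healthy neurons keep major histocompatibility complex (MHC) class I, which shows peptides from inside a cell to CD8 T cells, at low levels. Interferons raise the class I genes, the immunoproteasome that cuts the peptides and the transactivator NLRC5, and type II interferon (IFNG) is made mainly by T and NK cells. Microglia are the resident myeloid cells of the retina, and lymphocytes are few in a healthy one.

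Cells were put into 13 classes by their UMIs of fixed marker genes, and each class is named as marker-like. Total UMIs ranged from 99772552 to 122705046 per library and the median from 5650.5 to 6036 UMIs per cell. Horizontal-like cells held 2568 and 2896 CPM (UMIs scaled to the total of the summed cells, after TMM normalisation of that total in class sums and without it in free RNA) of summed horizontal markers in the uninjected libraries and 2973 and 3086 in the mScarlet libraries, where each pair is given as right and left eye. Below, values of the uninjected libraries stand before the word against and those of the mScarlet libraries after it. Ganglion-like cells held 11375 and 10819 CPM of ganglion markers against 14631 and 12917 in the mScarlet libraries, and amacrine-like cells 4269 and 3977 CPM of amacrine markers against 3820.4 and 4501. None of its own markers passed the test in any of these 3 classes. The gates chose the cells by these same markers, so similar levels were partly fixed in advance and do not test the classes. Barcodes shared between pairs of these libraries numbered near what the sizes of the barcode lists give.

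The reporter was found where its vector was placed. It had 14239 and 11954 UMIs in the cells of the mScarlet libraries (44.2 and 37.9 percent of cells) and 0 and 0 in the uninjected libraries. In the blebs 61.3 and 56.1 percent of rod-like and 87.8 and 92.7 percent of cone-like cells held a UMI. Horizontal-like cells held 7 and 3 UMIs, ganglion-like cells 3 and 1 and amacrine-like cells 11 and 22. The amacrine-like level, 9.51 and 8.30 CPM, passed the test (edgeR adjusted p = 0.0398), yet lay below the 56.9 and 58.4 CPM of free RNA.

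Immune-like cells took a larger share of the cells in both blebs. Myeloid-like, T/NK-like and B/plasma-like cells together were 8.32% (right) and 10.1% (left) of cells in the mScarlet libraries against 0.860% and 0.785% in the uninjected libraries, a ratio of means of 11.2. The myeloid-like share was 0.626 and 0.488 percent in the uninjected and 4.60 and 3.43 percent in the mScarlet libraries. T/NK-like cells were 0.225 and 0.265 percent against 2.57 and 3.96 percent. B/plasma-like cells, the antibody lineage, numbered 1 and 4 in the uninjected and 110 and 303 in the mScarlet libraries, or 0.00978 and 0.0331 percent against 1.15 and 2.69 percent. In these 3 classes both blebs lay above both uninjected areas. The groups also did not overlap in the rod-, cone-, bipolar- and RPE-like shares or in the share of cells that passed no gate, so this pattern was not particular to immune-like cells. With 2 libraries a group the exact two-sided permutation test has 6 arrangements and cannot go below p = 0.333, the value of each of these shares (0.625 after adjustment over the classes), so no share can pass 0.05. Without the right uninjected library the differences in means of the 3 immune-like classes ran from 1.89 percentage points (B/plasma-like) to 3.53 (myeloid-like), and with it from 1.90 to 3.46. With any 1 library left out the B/plasma-like difference ran from 1.13 (without the left mScarlet) to 2.67 (without the right mScarlet library), the T/NK-like one from 2.33 to 3.71 and the myeloid-like one from 2.88 to 4.04.

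**Figure D1:**
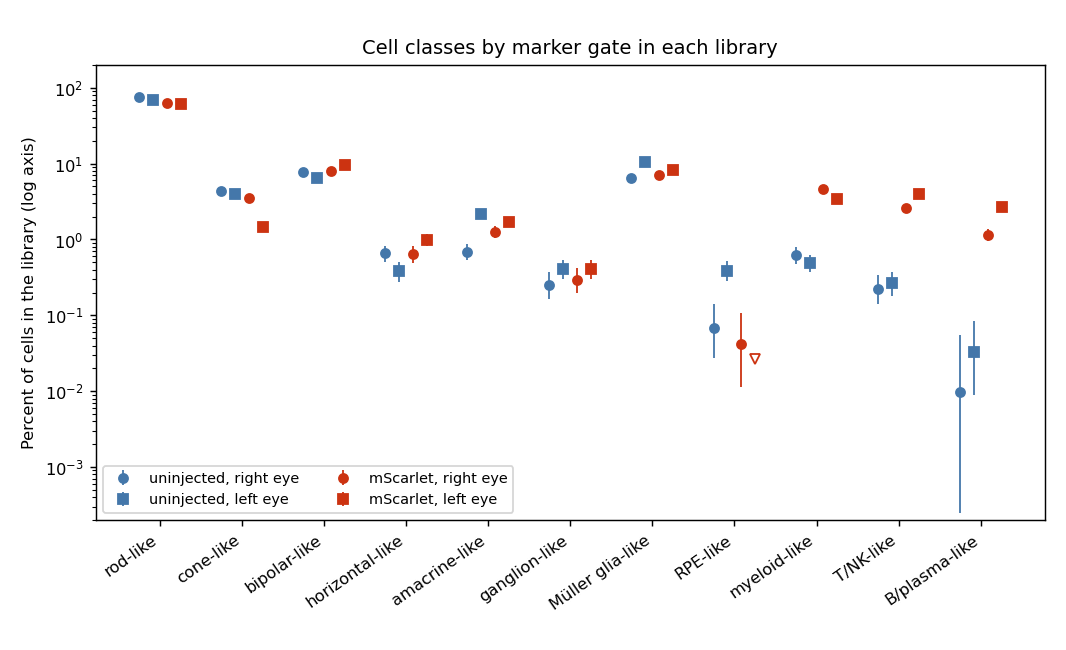
Share of cells in 11 of the 13 classes (percent of all cells of a library, log axis) for the 2 uninjected and the 2 mScarlet libraries of NHP2, with exact 95% intervals that cover counting error only. The myeloid-like, T/NK-like and B/plasma-like shares of both blebs lie above those of both uninjected areas, while the horizontal-, amacrine- and ganglion-like shares overlap; an open triangle marks the upper limit for a share of 0.

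Among the immune-like cells the balance differed as well. B/plasma-like cells were 1.14% and 4.21% of them in the uninjected and 13.8% and 26.7% in the mScarlet libraries, and myeloid-like cells 72.7% and 62.1% against 55.3% and 34.1% (both exact permutation p = 0.333). The T/NK-like part of the immune cells, 26.1% and 33.7% against 30.9% and 39.3%, overlapped between the groups. As shares of all cells again, rod-like cells were 75.8 and 68.2 percent in the uninjected and 62.7 and 60.8 percent in the mScarlet libraries. Cone-like cells were 4.31 and 4.01 percent against 3.51 and 1.46 percent, and bipolar-like cells 7.68 and 6.52 percent against 8.12 and 9.56 percent. Horizontal-like cells were 0.655 and 0.380 percent against 0.638 and 0.985 percent, amacrine-like cells 0.694 and 2.17 percent against 1.27 and 1.70 percent, and ganglion-like cells 0.254 and 0.405 percent against 0.293 and 0.408 percent, so these inner neurons overlapped between the groups (exact permutation p = 0.667 to 1). Cells that passed no gate and stayed unnamed were 1.70 and 2.30 percent against 5.76 and 4.76 percent, and what they were was not tested. Cells left unnamed between several gates were 1.39 and 4.22 percent against 2.17 and 1.83 percent. These shares add up to a whole and no fall in number can be read from them. Cells of the retinal pigment epithelium, which lies behind the photoreceptors, numbered 7 and 47 in the uninjected and 4 and 0 in the mScarlet libraries, and 0 of 11270 cells allows a share of up to 0.0266%.

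MHC class I genes rose in horizontal-, amacrine- and ganglion-like cells, here described first for horizontal-like cells. The sums came from 67 and 46 horizontal-like cells in the uninjected and 61 and 111 in the mScarlet libraries, and a sum cannot tell fewer expressing cells from less RNA per cell. MAMU-A, a classical class I heavy chain, stood at 48.6 and 35.1 CPM in the uninjected and 705 and 987 CPM in the mScarlet libraries. The groups lay far apart, with a log2 fold change of 4.30 ± 0.27 (SE, n = 2 libraries a group, edgeR adjusted p = 0.00253). Mamu-B, another heavy chain, rose from 141 and 58.6 CPM to 1645 and 2050.2 CPM (log2 4.16 ± 0.36, edgeR adjusted p = 0.0046). B2M, the light chain that every class I molecule needs, rose from 156 and 71.9 to 818 and 981 CPM (2.93 ± 0.32, edgeR adjusted p = 0.0149). In each of these genes both blebs lay above both uninjected areas. Class I genes are near-identical copies of one another, so the split of UMIs among them is uncertain.

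The class I transactivator and 2 immunoproteasome subunits rose too, while TAPBP, PSME1, PSME2 and CALR, which serve peptide processing and loading, did not pass (log2 1.05, 0.87, 0.55 and 0.22, edgeR adjusted p = 0.361, 0.506, 0.687 and 0.924). NLRC5, that transactivator, went from 15.2 and 8.36 to 126 and 162 CPM in horizontal-like cells (log2 3.52 ± 0.30, edgeR adjusted p = 0.00452). The immunoproteasome subunit PSMB9 went from 20.0 and 10.0 to 83.9 and 135 CPM (2.79 ± 0.37, edgeR adjusted p = 0.0346) and its partner PSMB8 from 28.6 and 8.36 to 138 and 251 CPM (3.26 ± 0.46, edgeR adjusted p = 0.0471). Of the interferon response list, BST2, a membrane protein that tethers virions, went from 1.90 and 3.35 to 85.9 and 165 CPM (edgeR adjusted p = 0.00886). IRF1, a transcription factor of the interferon pathway, went from 1.90 and 5.02 to 47.6 and 97.0 CPM (edgeR adjusted p = 0.0312). The guanylate-binding protein GBP3, an interferon-induced GTPase, went from 2.86 and 3.35 to 54.9 and 95.1 CPM and the butyrophilin BTN2A2 from 48.6 and 33.5 to 272 and 293 CPM. Both passed (edgeR adjusted p = 0.0111 and 0.00422), and in each the blebs lay above the uninjected areas.

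Of 9431 genes tested in horizontal-like cells 18 were raised (0.191%) and 5 lowered (0.053%). All 18 raised genes were above their level in free RNA in both mScarlet libraries. Of the MHC class I processing list 5 of the 10 tested members were raised, and the median log2 fold change was 2.36 against -0.0026 over all genes tested. Mamu-B, AG and 2 features without a symbol, which make up a list of 4 taken from the features that the study named for class I on these samples, were all raised, which is not independent evidence. The number of calls depended on the libraries, with 113 without the right uninjected, 25 without the left uninjected, 65 without the right mScarlet and 47 without the left mScarlet library, and 18 with the eye as a block, of which 16 were among the 23. Without the right uninjected library 21 of the 23 calls were kept. With all 6 NHP2 libraries in 1 fit (the hRPGR blebs included) 16 of the 23 were kept, and PSMB9, PSMB8, IRF1 and GBP3 were among those that did not pass (edgeR adjusted p = 0.0586, 0.0657, 0.0682 and 0.0792). Of the markers of other cells, the bipolar list summed to 38.1 and 26.8 CPM in the uninjected and 362 and 99.9 in the mScarlet horizontal-like cells, and its part in the calls was not tested. The amacrine list summed to 1153 and 1116 against 1051 and 1069 CPM. A cell that passed the horizontal gate was not scored as amacrine-like, so these 2 classes were not separated by amacrine markers. The myeloid list, with all 13 markers seen, summed to 60.9 and 45.2 against 32.1 and 31.5 CPM, and the T/NK list, with 10 of 17 seen, to 29.5 and 20.1 against 47.6 and 22.3 CPM.

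In amacrine-like cells NLRC5, the immunoproteasome subunits PSMB8 and PSMB9 and class I genes were raised as well. They numbered 71 and 263 in the uninjected and 121 and 192 in the mScarlet libraries. NLRC5 led the list, at 1.41 and 2.75 CPM in the uninjected and 67.4 and 61.5 CPM in the mScarlet libraries (log2 4.67 ± 0.38, edgeR adjusted p = 1.68e-04). PSMB9 was at 2.81 and 2.75 against 44.1 and 46.4 CPM (4.01 ± 0.39, edgeR adjusted p = 5.87e-04) and PSMB8 at 18.3 and 9.61 against 104 and 93.9 CPM (3.02 ± 0.32, edgeR adjusted p = 8.02e-04). In each of them the lowest bleb was several times the highest uninjected area. Mamu-B was at 145 and 84.1 against 975 and 768 CPM (2.96 ± 0.35, edgeR adjusted p = 0.00133), MAMU-A at 155 and 92.3 against 583 and 507 CPM (2.17 ± 0.32, edgeR adjusted p = 0.00935), and MAMU-E, a non-classical heavy chain, at 92.8 and 39.1 against 263 and 298 CPM (2.19 ± 0.36, edgeR adjusted p = 0.0234). B2M was at 136 and 41.5 against 508 and 425 CPM (2.49 ± 0.44, edgeR adjusted p = 0.0378), but it did not pass in DESeq2 (adjusted p = 0.635). PZP, a broad protease inhibitor, was at 4.22 and 8.93 against 99.4 and 64.5 CPM (3.38 ± 0.36, edgeR adjusted p = 8.06e-04), again with the blebs above both uninjected areas. IRF1 was at 0 and 5.49 against 39.8 and 29.0 CPM (edgeR adjusted p = 0.0307).

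Of 11846 genes tested in amacrine-like cells 23 were raised (0.194%) and 2 lowered (0.0169%). Of the 14 tested class I processing genes 7 were raised, and the median log2 fold change was 1.48 against 0.0059 over all genes. Of the 23 raised genes 16 were above free RNA in both mScarlet libraries, and PSMB9, B2M, PZP, IRF1, GBP3, APOL2 and the reporter were not. Myeloid markers summed to 11.2 and 18.9 CPM in the uninjected and 27.7 and 20.7 in the mScarlet cells. Free RNA itself held 1.45 and 1.28 CPM of NLRC5 in the uninjected and 39.8 and 45.8 in the mScarlet libraries, and 11.2 and 42.9 against 154 and 304 CPM of MAMU-A. For PSMB9 it held 44.3 and 89.0 CPM in the mScarlet libraries, for B2M 293 and 651, for PZP 207 and 289.8 and for IRF1 27.4 and 49.8, in each case above the amacrine-like level of at least 1 bleb. The part of free RNA in the rise was not tested. The count was 286 without the right uninjected library, 50 without the left uninjected, 71 without the right mScarlet and 49 without the left mScarlet, and 44 with the eye as a block. All 25 calls were kept without the right uninjected library, but 12 with all 6 NHP2 libraries in the fit, where B2M, IRF1, MAMU-E and PZP did not pass (edgeR adjusted p = 0.134, 0.134, 0.160 and 0.541).

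Class I genes rose in ganglion-like cells too, with smaller fold changes, though the difference between these classes was not tested. The class rested on 26 and 49 uninjected and 28 and 46 mScarlet cells. Mamu-B was at 182 and 107 CPM in the uninjected and 394 and 412 CPM in the mScarlet libraries (log2 1.50 ± 0.23, edgeR adjusted p = 0.00582), and MAMU-A at 237 and 164 against 385 and 415 CPM (1.01 ± 0.20, edgeR adjusted p = 0.034). B2M was at 90.3 and 24.2 against 175 and 297 CPM (2.14 ± 0.42, edgeR adjusted p = 0.0323). PSMB8 was at 10.8 and 8.06 against 33.9 and 72.7 CPM (2.60 ± 0.39, edgeR adjusted p = 0.00582) and NLRC5 at 2.71 and 5.58 against 15.5 and 43.3 CPM (2.85 ± 0.53, edgeR adjusted p = 0.0249). In these 5 genes the left bleb was the highest library and both blebs lay above both uninjected areas. Of these 5 genes MAMU-A alone was above its free RNA level in both blebs. Free RNA of the mScarlet libraries held 339 and 629 CPM of Mamu-B, 293 and 651 of B2M, 52.8 and 91.5 of PSMB8 and 39.8 and 45.8 of NLRC5, and its part in this rise was not tested. With all 6 NHP2 libraries in the fit MAMU-A, B2M and NLRC5 did not pass (edgeR adjusted p = 0.0577, 0.0609 and 0.0609). Of the 13 tested members of the class I processing list 6 were raised, beside 0.237% of all genes tested, and the median log2 fold change was 1.01 against 0.00074 over all genes.

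The genes raised in all 3 classes numbered 11, namely MAMU-A, Mamu-B, B2M, NLRC5, PSMB8, PSMB9, AG (a class I gene) and 4 features without a symbol. Horizontal- and amacrine-like cells shared 16, which is 88.9% of the first list and 69.6% of the second. Bipolar-like cells, also inner neurons, shared 17 raised genes with horizontal- (94.4% of that list), 22 with amacrine- (95.7%) and 12 with ganglion-like cells (48%). Rod-like cells shared 16 (88.9%), 19 (82.6%) and 12 (48%) with them. The bipolar and rod fits raised 98 of 12793 and 260 of 15265 genes. RefSeq promoter sequences of Mmul_10 were matched for 5 of the 11, and 2 motifs of interferon signalling were searched on both strands in the 250 bases before each gene start. The interferon-stimulated response element (ISRE, TTTCNNTTTC or GAAANNGAAA) is bound by IRF-containing complexes, and the gamma-activated site (GAS, TTCNNNGAA) is an element of type II interferon signalling. The ISRE letters were in 3.03% of 20782 promoters and the GAS letters in 5.98%. Among the 5 genes B2M alone held the ISRE, as a pair of overlapping matches that end 79 and 73 bases before the start, and none of the 5 held the GAS letters. These are matches of letters in this window only. The promoters of the light chain and an immunoproteasome subunit are shown, since these genes were raised in all 3 classes, with the ISRE letters in capitals.
B2M (Mmul_10, chr7:21220375-21220624, plus strand): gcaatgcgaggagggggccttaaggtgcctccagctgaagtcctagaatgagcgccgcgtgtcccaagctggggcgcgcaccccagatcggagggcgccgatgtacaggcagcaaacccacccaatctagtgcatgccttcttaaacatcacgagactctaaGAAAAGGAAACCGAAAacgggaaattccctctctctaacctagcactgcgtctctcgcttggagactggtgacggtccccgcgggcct
PSMB9 (Mmul_10, chr4:136673728-136673977, minus strand): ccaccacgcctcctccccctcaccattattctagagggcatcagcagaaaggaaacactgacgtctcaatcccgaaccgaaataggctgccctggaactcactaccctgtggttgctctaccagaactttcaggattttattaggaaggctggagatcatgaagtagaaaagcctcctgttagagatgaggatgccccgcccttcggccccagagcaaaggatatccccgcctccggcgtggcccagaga

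Of the interferon response list, IFI6, MX1 and IFIT1 overlapped between the groups, with high levels in the right uninjected library. Other members of that list lay higher in both blebs and are counted below. IFI6, an interferon-induced mitochondrial protein, was at 4237 and 494 CPM in the uninjected and 2588 and 1515 CPM in the mScarlet horizontal-like cells. MX1, a GTPase that blocks viruses, was at 207 and 3.35 against 176 and 86.8 CPM, and IFIT1, which binds foreign RNA, at 350.4 and 23.4 against 289 and 165 CPM. In all 3 genes the right uninjected library was the highest of the 4 and the left uninjected library the lowest. For IFI6 and MX1 the order was alike in amacrine-like cells, where IFI6 was at 1169 and 148 against 983 and 528 CPM and MX1 at 68.9 and 2.75 against 48.4 and 23.4 CPM. In ganglion-like cells IFI6 was at 991 and 213 against 615 and 529.9 CPM and MX1 at 75.0 and 19.8 against 49.4 and 47.2 CPM.

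Of the interferon response list 2 of 29 tested members were raised in horizontal-like, 1 of 33 in amacrine-like and 0 of 24 in ganglion-like cells, beside 0.191%, 0.194% and 0.237% of all genes tested (by edgeR, where 5 members of the 24 had p under 0.05 before adjustment; DESeq2 called 0). Members that lay higher in both blebs than in both uninjected areas numbered 15 of 29, 17 of 33 and 6 of 24, beside 18.4%, 14.1% and 17.8% of all genes tested, and 3 of the 24 lay lower in ganglion-like cells, beside 17.8% of all. The median log2 fold changes of the list were 0.89, 1.18 and 0.49. Within the right eye the medians were 0.49, 0.60 and -0.02, and within the left eye 2.79, 1.58 and 1.05. Without the right uninjected library 11, 19 and 8 members were raised, IFI6, MX1 and IFIT1 in each class, in fits that raised 0.353%, 0.866% and 0.931% of all genes tested. For IFI6 the edgeR adjusted p was then 0.0363 in horizontal-like cells (log2 2.06) and 8.95e-07 in amacrine-like cells (2.35). The right uninjected library is also the one that held codon-optimised RPGR UMIs, and whether the transgene bears on its interferon level was not tested.

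**Figure D2:**
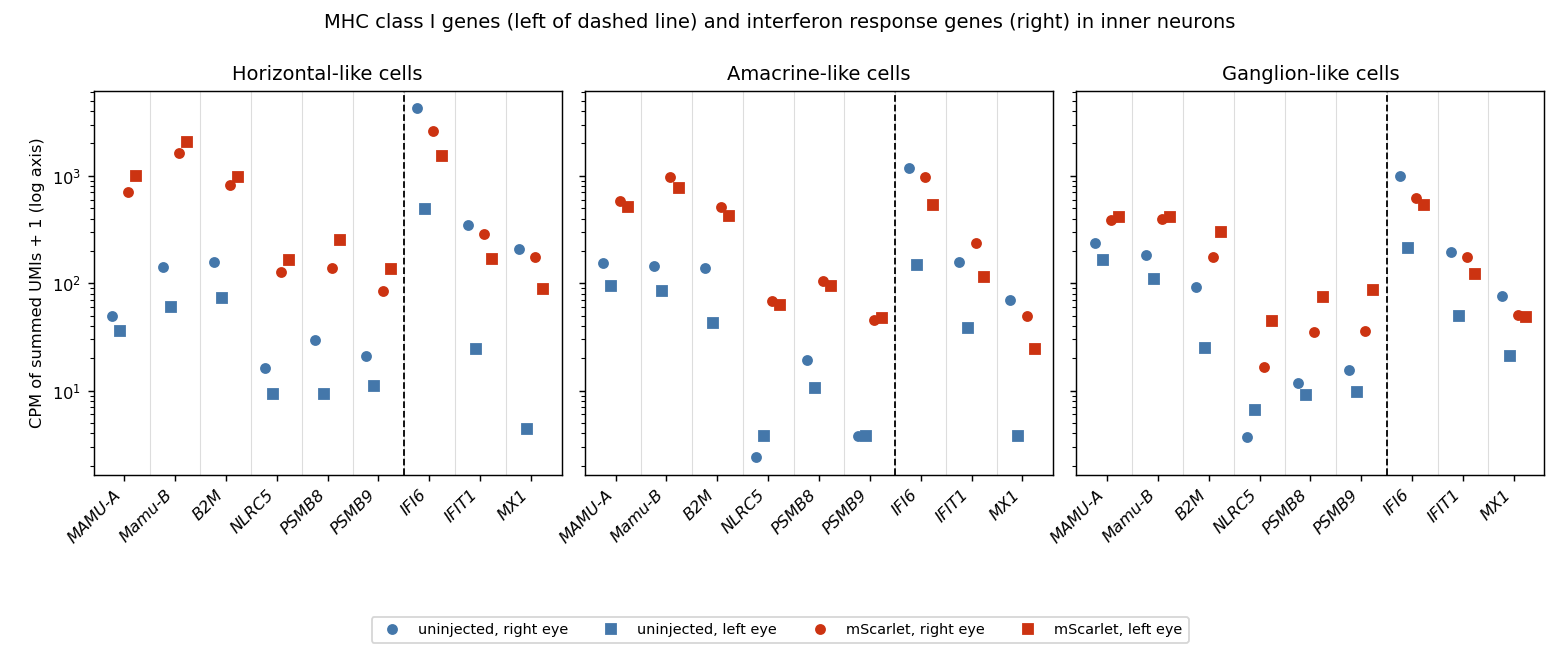
CPM + 1 (log axis) of 6 genes (left of the dashed line) and 3 interferon response genes (right of it) in horizontal-, amacrine- and ganglion-like cells, 1 point per library. The 6 genes are the MHC class I chains MAMU-A, Mamu-B and B2M, the transactivator NLRC5 and the immunoproteasome subunits PSMB8 and PSMB9. The mScarlet points of these 6 genes lie above both uninjected points, whereas the right uninjected circle is the highest or second highest point for IFI6, IFIT1 and MX1.

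In horizontal- and amacrine-like cells 5 and 2 genes were lowered with all 4 libraries, but 78 and 174 (against 35 and 112 raised) without the right uninjected library. In horizontal-like cells ST8SIA4, a polysialyltransferase of neural adhesion molecules, was at 205 and 87.0 CPM in the uninjected and 6.21 and 2.91 CPM in the mScarlet libraries (log2 -5.18 ± 0.54, edgeR adjusted p = 0.0111). The other lowered genes with a symbol, KIAA1217, the orphan receptor GPR158 and the scaffold FRMPD4, had a smaller change, with edgeR adjusted p = 0.0299, 0.0313 and 0.0471, and none of these 3 passed with the eye as a block (edgeR adjusted p = 0.0575, 0.0706 and 0.0738). GPR158 and FRMPD4 also did not pass without either mScarlet library, nor FRMPD4 without the left uninjected one. In amacrine-like cells DLK1, a non-canonical Notch ligand, had 13 and 76 UMIs in the uninjected and 0 and 0 in the mScarlet libraries. The serotonin receptor HTR1E was at 29.5 and 24.4 against 6.05 and 0.754 CPM (-3.34 ± 0.61, edgeR adjusted p = 0.0443), but it did not pass in DESeq2 (adjusted p = 0.0559) or when the left uninjected or the left mScarlet library was left out.

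Ganglion-like cells had the most lowered genes of the 3 classes. Of 10545 genes tested 76 were lowered (0.721%) and 25 raised (0.237%). TAC1, the precursor of the neuropeptide substance P, had 191 and 461 UMIs in the uninjected and 1 and 3 in the mScarlet libraries, or 173 and 286 against 0.969 and 1.30 CPM (edgeR adjusted p = 6.54e-06). PCDH15, a cadherin-like adhesion protein, was at 169 and 146 against 14.5 and 22.1 CPM (-3.01 ± 0.23, edgeR adjusted p = 8.15e-05). GAD2, an enzyme of GABA synthesis and an amacrine marker, was at 42.4 and 47.7 against 17.4 and 10.8 CPM (edgeR adjusted p = 0.00799), and the endothelial marker VWF at 65.9 and 62.0 against 6.78 and 14.3 CPM (edgeR adjusted p = 0.00118). In all 4 genes both blebs were below both uninjected areas. With all 6 NHP2 libraries in the fit 29 of the 101 calls were kept, 16 lowered and 13 raised, among them TAC1, PCDH15 and GAD2, whereas VWF did not pass (edgeR adjusted p = 0.0984).

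Rod genes, which serve phototransduction, were among the lowered ones. Rod arrestin SAG was at 228 and 199 against 57.1 and 27.7 CPM in ganglion-like cells and rod transducin GNAT1 at 99.4 and 71.3 against 10.7 and 9.09 CPM (edgeR adjusted p = 9.35e-04 and 3.90e-04), although neither passed with all 6 NHP2 libraries in the fit (edgeR adjusted p = 0.0640 and 0.0534). Of the 10 matched rod markers 9 were lowered, and their summed level was 1898 and 1341 against 427 and 194 CPM. Free RNA held 18350.4 and 37981 CPM of the same markers in the uninjected and 7629 and 9667 in the mScarlet libraries. Of the 76 lowered genes 58 were below their free RNA level in both uninjected libraries, and 45 were also lower in the free RNA of the bleb of both eyes. Of the phototransduction list 7 of 12 tested members were lowered, beside 0.721% of all genes tested, and the median log2 fold change was -2.27 against 0.00074 over all genes.

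Besides class I, filament proteins and a metallothionein were among the genes raised in ganglion-like cells. MT2A, a metal-binding metallothionein, was at 19.9 and 22.3 CPM in the uninjected and 74.6 and 72.3 CPM in the mScarlet libraries (log2 1.78 ± 0.22, edgeR adjusted p = 0.00184). PRPH, a neuronal intermediate filament, was at 220.4 and 159 against 522 and 442 CPM (1.35 ± 0.20, edgeR adjusted p = 0.00539). The keratins KRT7 and KRT81, which are filament proteins of epithelia, were at 23.5 and 23.6 against 75.5 and 72.3 CPM and at 40.6 and 50.2 against 110.4 and 137 CPM. S100B, a calcium-binding protein and an astrocyte marker, was at 34.3 and 41.5 against 141 and 97.0 CPM (1.60 ± 0.23, edgeR adjusted p = 0.00482). The summed astrocyte list, of which 3 of 4 markers were seen and ALDH1L1 was at 0, was at 47.9 and 41.5 against 145 and 101 CPM, and its part in this rise was not tested. Of the 25 raised genes 15 were above free RNA in both mScarlet libraries. Calls numbered 380 without the right uninjected library, of which 96 were among the 101, 270 without the left uninjected, 189 without the right mScarlet, 181 without the left mScarlet and 399 with the eye as a block.

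**Figure D3:**
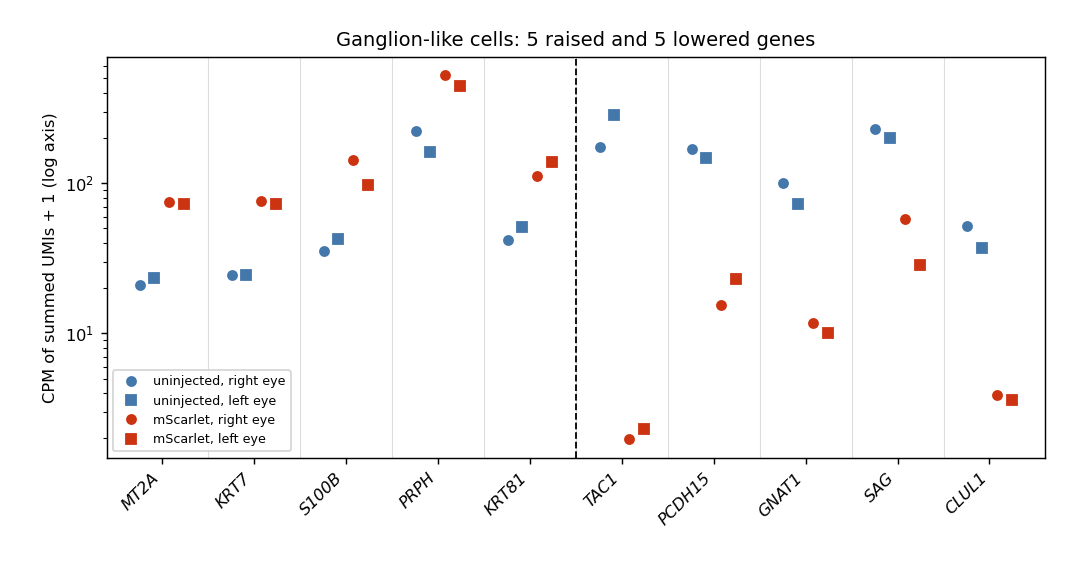
CPM + 1 (log axis) of 5 raised genes (left of the dashed line) and 5 lowered genes (right of it) in ganglion-like cells, 1 point per library. The red mScarlet points lie above both blue uninjected points for the raised genes, such as MT2A, and below them for the lowered genes, such as TAC1 and SAG.

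Lists of stress, injury and synaptic genes had no call in horizontal-, amacrine- or ganglion-like cells in edgeR. Over all genes tested there, 722 of 9431, 399 of 11846 and 744 of 10545 had an unadjusted p under 0.05 in horizontal-, amacrine- and ganglion-like cells. None of the synaptic genes tested (23, 29 and 26 in horizontal-, amacrine- and ganglion-like cells) passed, with medians of -0.21, -0.10 and -0.07 on the log2 scale, and 4, 0 and 3 had an unadjusted p under 0.05 (DESeq2 called 1 in horizontal-like cells). With 1 library left out the synaptic median ran from -0.37 (without the right mScarlet) to -0.042 (without the left mScarlet) in horizontal-like cells and from -0.13 (without the right uninjected) to -0.0096 (without the left uninjected) in amacrine-like cells. None of the 5, 9 and 7 axon injury and neuronal stress genes passed, with medians of 0.55, 0.25 and 0.15, and 1, 3 and 1 had an unadjusted p under 0.05 (none in DESeq2). The cell death list had 2, 4 and 5 members tested and no call in edgeR or DESeq2, with 0, 0 and 1 at an unadjusted p under 0.05. Of the immediate early and heat shock list 11 members were tested in each class and none was called, with medians of 1.08, 0.34 and 0.34 and 8, 3 and 2 at an unadjusted p under 0.05 (DESeq2 called 2 in horizontal-like cells). In horizontal-like cells 9 of the 11 were higher in both blebs than in both uninjected areas, a pattern that 18.4% of all genes tested there showed, and 6 passed without the right mScarlet library, where 44 of 10077 genes were raised.

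The change in rod-like cells, most of which held an mScarlet UMI, was compared with that in amacrine- and horizontal-like cells by the interaction of class and treatment. Of 16121 genes 110 (0.682%) changed differently in amacrine- and rod-like cells, 96 of them (0.595% of all) in the direction of a lower change in amacrine-like cells. HERC6, an interferon-induced ubiquitin ligase, changed by 4.60 on the log2 scale in rod-like and 0.93 in amacrine-like cells, a difference of -3.69 ± 0.34 (edgeR adjusted p = 0.000189). The class I gene MAMU-E changed by 4.90 and 2.19, a difference of -2.81 ± 0.25 (edgeR adjusted p = 0.000167), and BST2 by 5.95 and 2.13 (difference -4.12 ± 0.40, edgeR adjusted p = 0.000308). Between horizontal- and rod-like cells 31 of 15113 genes (0.205%) differed, again with HERC6 and MAMU-E among them (differences -4.04 ± 0.31 and -2.96 ± 0.27, edgeR adjusted p = 0.00396 and 0.00554). For B2M, MAMU-A and NLRC5 the difference did not pass there, at -1.67 ± 0.33, -1.69 ± 0.46 and -1.87 ± 0.54 (edgeR adjusted p = 0.125, 0.278 and 0.316). The amacrine count was 632 without the right uninjected library (364 with a higher and 268 with a lower change in amacrine-like cells, so the balance turned), 435 without the left uninjected, 89 without the right mScarlet and 137 without the left mScarlet, and the horizontal count 774, 263, 95 and 79.

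In myeloid-like cells APOE and the apolipoproteins APOC1 and APOC2 rose, while TNF and the chemokine genes CCL4L1, CCL3 and CXCL8 fell. They numbered 64 and 59 in the uninjected and 440 and 387 in the mScarlet libraries. APOE, the main lipid carrier made by glia, was at 5178 and 4169 CPM in the uninjected and 11981 and 13309 CPM in the mScarlet libraries (log2 1.44 ± 0.15, edgeR adjusted p = 0.0207). The apolipoprotein APOC1 was at 220.01 and 363 against 2679 and 3704 CPM (3.45 ± 0.29, edgeR adjusted p = 0.00881) and APOC2 at 4.54 and 8.75 against 183 and 199.6 CPM (4.83 ± 0.34, edgeR adjusted p = 0.00498). Both blebs lay above both uninjected areas in these 3 genes. LGALS3, a galectin of activated phagocytes, was at 122 and 217 against 784 and 866 CPM (2.28 ± 0.28, edgeR adjusted p = 0.0403), and SUCNR1, the succinate receptor, at 4.54 and 4.37 against 87.5 and 125 CPM (edgeR adjusted p = 0.0201).

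The lowered myeloid genes included TNF and the chemokine genes CCL4L1, CCL3 and CXCL8. Another chemokine gene, CXCL9, was higher in both blebs without passing the test, as given below. TNF was at 855 and 938 CPM in the uninjected and 84.0 and 77.1 CPM in the mScarlet libraries (log2 -3.48 ± 0.19, edgeR adjusted p = 0.00208). CCL4L1, a chemokine that draws T cells and monocytes, was at 3552 and 3512 against 419 and 462 CPM (8.02-fold lower, edgeR adjusted p = 0.00188). CCL3, of the same family, was at 2669.7 and 2712 against 843 and 855 CPM (edgeR adjusted p = 0.00892) and CXCL8, which draws neutrophils, at 1050.2 and 1185 against 196 and 231 CPM (edgeR adjusted p = 0.00795). In these genes the 2 uninjected libraries lay close together and the 2 blebs lay close together well below them. JUN, a transcription factor kept in the axon injury and neuronal stress list, was at 4384 and 4873 against 1723 and 1944 CPM (edgeR adjusted p = 0.0246). With all 6 NHP2 libraries in the fit none of the 20 lowered genes passed (edgeR adjusted p = 0.126 for CCL4L1, 0.143 for TNF and CXCL8, 0.206 for CCL3 and 0.362 for JUN; 1209 genes had an unadjusted p under 0.05), and of the 10 raised genes APOC2 and SUCNR1 alone did. All 12 tested members of the immediate early and heat shock list had lower values in the blebs (median log2 -0.74) and none passed in edgeR (9 at an unadjusted p under 0.05 and 5 called lowered in DESeq2, beside 1585 and 107 of all 10566 genes tested).

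Of 10566 genes tested in myeloid-like cells 10 were raised (0.0946%) and 20 lowered (0.189%). The homeostatic microglia list had a median log2 change of -0.98 and no call among 7 members (edgeR; 5 at an unadjusted p under 0.05, 2 called lowered in DESeq2). P2RY12, a purine receptor of resting microglia, was at 730.4 and 267 against 190.00 and 148 CPM (edgeR adjusted p = 0.183), and the fractalkine receptor CX3CR1 at 937 and 269 against 176 and 163 CPM (edgeR adjusted p = 0.182). In both genes the right uninjected library was far above the other 3. Of the activated list 2 of 17 were raised, APOE and LGALS3, with a median of 1.04. GPNMB, a glycoprotein of lipid-laden phagocytes, was at 0 and 87.5 against 800.5 and 652 CPM (edgeR adjusted p = 0.118). All 10 MHC class II genes tested lay higher in both blebs than in both uninjected areas, a pattern that 25.5% of all genes showed, and none passed in edgeR (median log2 0.60; all 10 at an unadjusted p under 0.05, 1 called in DESeq2). The interferon chemokine CXCL9 was at 6.80 and 15.3 against 101 and 263 CPM (edgeR adjusted p = 0.0752). Microglia-marked cells, which held a UMI of at least 1 of 6 microglial genes, were 92.2% and 93.2% of myeloid-like cells in the uninjected and 82.0% and 85.0% in the mScarlet libraries (exact permutation p = 0.333), against 0.503% to 0.849% of rod-like cells. P2RY12 and CX3CR1 also belong to the myeloid gate, so their values and this share are partly drawn from the gate. The median depth of all myeloid-like cells was 4246.5 to 9370 UMIs, and that of rod-like cells 5118.5 to 5546.5. Calls numbered 499 without the right uninjected library, with all 30 kept, 653 without the left uninjected, 180 without the right mScarlet, 117 without the left mScarlet and 254 with the eye as a block. Rod markers, all of which were seen, summed to 1368 and 3683 CPM in the uninjected and 1012 and 1144 in the mScarlet myeloid-like cells.

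T/NK-like cells of the blebs held RNA of CXCL13, IL10 and MKI67 that was scarce or unseen in the few T/NK-like cells of the uninjected areas. The class held 23 and 32 cells in the uninjected and 246 and 446 in the mScarlet libraries. CXCL13, a chemokine that draws B cells, had 0 and 0 UMIs in the uninjected and 383 and 805 in the mScarlet libraries (282 and 343 CPM), at least 9.98-fold higher against a floor of 3 UMIs per library (edgeR adjusted p = 0.0033). IL10, an anti-inflammatory cytokine, was at 25.2 and 24.8 against 231 and 169 CPM (edgeR adjusted p = 0.0487). MKI67, a marker of dividing cells, had 0 and 0 against 208 and 641 UMIs (edgeR adjusted p = 0.0487). TRBV29-1, a variable segment of the T cell receptor, had 0 and 0 against 137 and 234 UMIs (edgeR adjusted p = 0.0487). CXCL13, MKI67 and TRBV29-1 entered the test through their bleb counts alone, so the gap between the groups in them is no further support. With all 6 NHP2 libraries in the fit CXCL13 passed, and IL10, TRBV29-1 and MKI67 did not (edgeR adjusted p = 0.0558, 0.0558 and 0.196). All 7 tested proliferation genes had higher values in the blebs (median log2 fold change 2.29, 1 call in edgeR). Depth was unequal, as the summed T/NK-like cells held 81596 and 124034 UMIs in the uninjected and 1402640 and 2387908 in the mScarlet libraries. A gene could thus pass the filter on low counts through its bleb counts alone, as CXCL13, MKI67 and TRBV29-1 did. The shared direction of the 7 genes therefore cannot show that the list as a whole rose.

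Of 8046 genes tested in T/NK-like cells 4 were raised (0.0497%) and 5 lowered (0.0621%). Of the 5 lowered genes 3, PDE6G, AIPL1 and GNAT1, are photoreceptor genes, and rod markers summed to 2056 and 6218 CPM in the uninjected and 1269 and 1155 in the mScarlet T/NK-like cells. Of the 12 cytotoxic and 10 checkpoint genes tested none passed in edgeR or DESeq2, with 3 and 6 at an unadjusted p under 0.05, beside 792 of all 8046. GZMB, a granzyme, was at 1059.6 and 363 against 1919.8 and 1319.8 CPM (edgeR adjusted p = 0.225), the checkpoint receptor PDCD1 at 12.6 and 116 against 273 and 239 CPM (edgeR adjusted p = 0.147), and IFNG had 1 and 3 against 87 and 105 UMIs (edgeR adjusted p = 0.511). The median log2 fold change was 1.05 for the 10 checkpoint genes, -0.11 for the naive and memory list and 0.031 over all genes tested. The limit of unequal depth given for the proliferation genes holds for these lists too. CD8-marked cells were 69.6% and 43.8% of T/NK-like cells in the uninjected and 52.4% and 50.7% in the mScarlet libraries, and CD4-marked cells 17.4% and 28.1% against 26.4% and 26.5%, so both overlapped between the groups. In rod-like cells the same markers were seen in at most 0.788% of cells. CD8A and CD8B also belong to the T/NK gate, so the CD8-marked share is partly drawn from the gate. The calls fell to 0 without the left mScarlet library (107 genes at an unadjusted p under 0.05 in edgeR) and were 59 without the right uninjected, with all 9 kept, 5 without the left uninjected, 42 without the right mScarlet and 134 with the eye as a block.

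The B/plasma-like class is described by its levels, part of which the gate used. JCHAIN, the joining chain of secreted IgA and IgM, was at 22124 and 24661 CPM in the mScarlet libraries, MZB1, a chaperone of antibody folding, at 1177 and 1470.3 CPM and MS4A1 (CD20), which plasma cells lose, at 57.8 and 45.3 CPM. The uninjected libraries held 1 and 4 such cells, so no test was made.

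**Figure D4:**
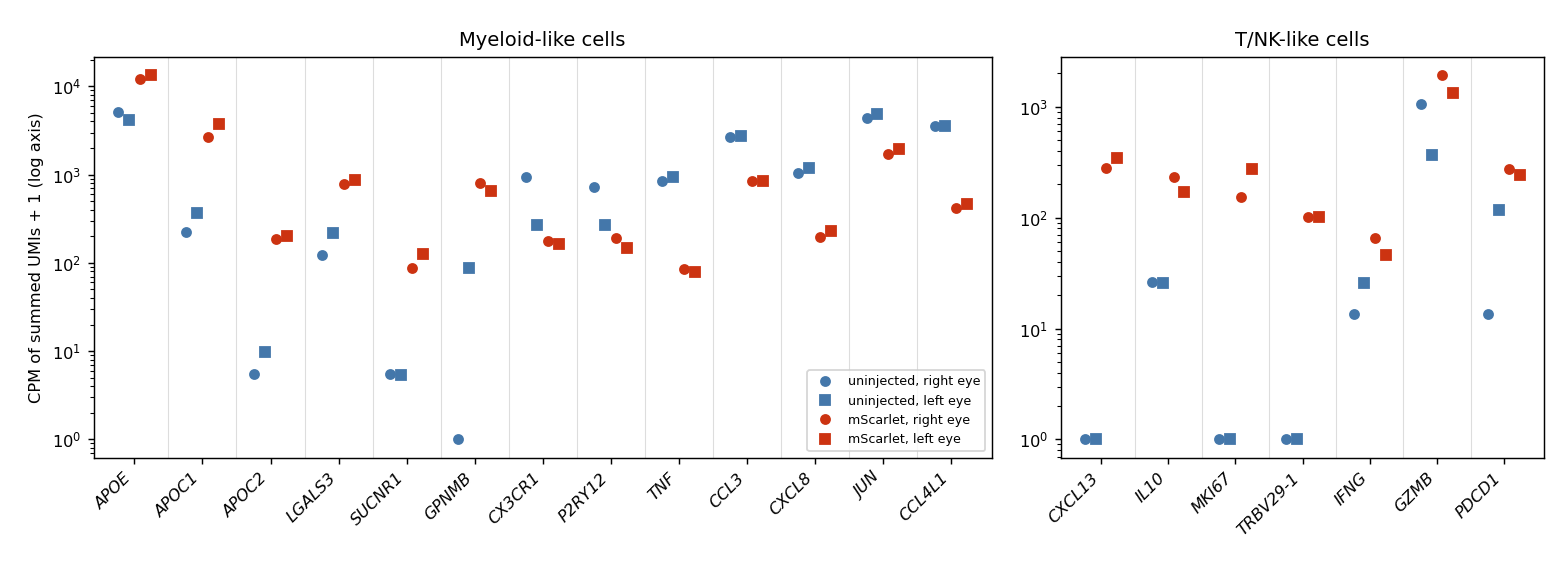
CPM + 1 (log axis) of genes in myeloid-like (left panel) and T/NK-like cells (right panel), 1 point per library, with blue for uninjected and red for mScarlet. The red points lie above both blue points for APOE, APOC1 and CXCL13 and below them for TNF, CCL3 and CXCL8.

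Over all cells, 1515 of 18356 genes were raised (8.25%) and 98 lowered (0.534%), and with immune-like cells left out 266 and 21 of 17913, a setting chosen after seeing the data. Without the left mScarlet library 1069 genes were called in all, and 3141 with the eye as a block. IFNG had 1 and 3 UMIs in the uninjected and 92 and 111 in the mScarlet libraries (edgeR adjusted p = 0.00254). Most of them were in T/NK-like cells, which numbered 23 and 32 against 246 and 446, and within that class IFNG did not pass. IFNB1, a type I interferon, had 0 and 1 against 0 and 2 UMIs, too few to compare. The interferon-induced chemokine CXCL9 had 3 and 8 against 480 and 1337 UMIs, and CXCL10, which draws T cells, 152 and 123 against 6172 and 6371. The 2 groups also differed in a gene that marks position in the developing retina, which was chosen after its values were seen. FOXD1, known for the temporal side, had 0 and 0 against 57 and 53 UMIs (edgeR adjusted p = 0.00637). The position of the sampled areas and the bleb cannot be told apart in the values given above, other than those of the reporter.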

How the data were processed

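The authors deposited UMI counts per feature and barcode, counted by Cell Ranger 8.0.1 against Mmul_10 to which 3 transgene features had been added, per the file headers. The counts are raw and the barcode lists unfiltered. Cells needed 1500 UMIs and 300 genes. A cell joined a class if its marker UMIs passed that class's gate and were at least 2 times those of any other class per gate, and the gates were set after looking at marker counts. The exception was a cell that passed the horizontal gate, which was not scored for the amacrine class. Cells passing no gate, or several without that ratio of 2, stayed unnamed, and doublets were removed only in an alternative (Scrublet scores, 0.8% per 1000 cells). Counts were summed per library and class and tested with edgeR 4.0.16 (quasi-likelihood, TMM, filterByExpr, R 4.3.3), Benjamini-Hochberg adjusted at 0.05. DESeq2 1.42.0 was an alternative. Named genes were the 8 raised and 5 lowered with the lowest p that changed alike in both eyes, and members of 23 fixed lists and the markers, of which 312 of 354 and 136 of 141 symbols matched. Same-numbered libraries came from the same eye, so the eye number pairs them. Left-minus-right deviations of the 2 groups correlated at -0.220 to 0.243 across genes, over 2 pairs. Steps were tested on simulated data, with dispersions capped. Of 100 genes changed 2-fold, 21 were recovered in horizontal-, 21 in amacrine-, 55 in ganglion-, 11 in myeloid- and 10 in T/NK-like cells. Lists without a call may therefore hold changes that were missed. Of 100 genes changed 4-fold in the same data 88, 86, 90, 71 and 63 were recovered in these classes. Genes left unchanged gave 6, 8, 10, 10 and 4 false calls there and 23 over all cells, so some calls may be false. The members and lists were chosen with earlier results of these data known. Genome sequence and gene starts came from the RefSeq annotation of Mmul_10. Some genes and a promoter sequence are not reported here.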

Additional observations from a re-analysis of the deposited data

Results flagged for a closer look

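The change between bleb and uninjected area differed between amacrine-like and rod-like cells in 110 genes and between horizontal-like and rod-like cells in 31 (interaction test in edgeR). Against rod-like cells the log2 change in amacrine-like cells was higher by 2.64 for NCALD, a neuronal calcium sensor, by 2.59 for the receptor phosphatase PTPRK and by 1.92 for the membrane protein TMEM132A. It differed by -4.18 for the phosphodiesterase PDE3A, by -3.54 for FGF12, a regulator of sodium channels, and by -5.24 for the scaffold LIN7A. In horizontal-like cells the change was higher than in rod-like cells by 2.43 for TMEM132A and by 1.91 for LMO1, a transcriptional cofactor. It differed there by -4.04 for HERC6, by -2.88 for the tubulin TUBA1C and by -2.96 for MAMU-E.

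UMIs assigned to transgenes that the labels do not place in these libraries were also seen. UMIs of the codon-optimised RPGR transgene were in 17.7% of cells in the right uninjected library, 4.27% in the right and 0.0621% in the left mScarlet library. In the left uninjected library 8 UMIs were assigned to the feature of the huRPE65 transgene, whose vector was given to the other animal. Of these 4 were in its 47 RPE-like cells, a cell type that expresses the native gene, and 3 in its 8244 rod-like cells, and whether they came from it was not tested.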

How the results depend on the processing

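With the eye as a replicate block, which pairs the libraries of an eye, edgeR called 3141 genes in all cells, 18 in horizontal-, 44 in amacrine-, 399 in ganglion-, 254 in myeloid-, 134 in T/NK-, 1050 in rod-, 377 in bipolar- and 63 in Müller glia-like cells, against 1613, 23, 25, 101, 30, 9, 301, 112 and 1 without it. DESeq2 called 55 in horizontal-, 14 in amacrine-, 60 in ganglion-, 209 in myeloid-, 19 in T/NK-, 886 in rod- and 332 in Müller glia-like cells and 82 in the horizontal interaction. With no filter on low counts the numbers were 384, 115, 326, 889, 172 and 598 in horizontal-, amacrine-, ganglion-, myeloid-, T/NK- and rod-like, 1483 in cone- and 661 in bipolar-like cells, and 376 and 385 in the amacrine and horizontal interactions. Removing the highest doublet scores gave 79 in horizontal-, 48 in myeloid- and 28 in T/NK-like cells, and a stricter gate 38 in horizontal-, 13 in amacrine-, 4 in T/NK- and 2 in Müller glia-like cells and 70 in the horizontal interaction. With all 6 NHP2 libraries in the fit the numbers were 12 in amacrine-, 29 in ganglion-, 2 in myeloid-, 2 in T/NK-, 34 in rod-, 199 in cone- and 27 in Müller glia-like cells. With immune-like cells left out, 287 were called in all cells, and 27 of the 1613 calls there changed sign. The causes were not tested.

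Leaving out 1 library at a time gave 1069 to 1483 calls in all cells, 25 to 113 in horizontal-, 49 to 286 in amacrine-, 181 to 380 in ganglion-, 117 to 653 in myeloid-, 0 to 59 in T/NK-, 272 to 4696 in rod-, 316 to 1327 in cone-, 46 to 548 in bipolar- and 1 to 1891 in Müller glia-like cells, and 89 to 632 and 79 to 774 in the amacrine and horizontal interactions. A group of 1 library is then assumed to vary like the other. Of 117 named genes none changed direction in DESeq2, with the block, with all 6 NHP2 libraries or without 1 library, the settings run for them. Their side of the threshold held for 81 with all 6 NHP2 libraries (31 lost their call) and for 113, 101, 110 and 103 without the right mScarlet, left mScarlet, right uninjected and left uninjected library.

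The difference in the amacrine-like share, 0.0501 percentage points, became -0.0316 with at least 3000 UMIs per cell, -0.0228 with a stricter gate and -1.17 as a share of named cells other than rods, where the bipolar-like difference became -2.55 and the ganglion-like one -0.277. Without 1 library the differences ranged from -0.690 to 0.790 for amacrine-, -0.0547 to 0.0962 for ganglion-, -2.79 to 1.17 for Müller glia-, -0.0151 to 0.0097 for endothelial- and -0.0692 to 0.0157 for mural-like cells. The differences for GABA-marked amacrine-, CD8-marked and CD4-marked T/NK-like cells ranged from -5.25 to 10.7, -18.0 to 7.81 and -1.68 to 9.05. The interferon response median ranged from 0.57 to 3.25 in horizontal-, 0.37 to 2.20 in amacrine-, -0.076 to 1.35 in ganglion-, -0.30 to 0.80 in myeloid- and -0.67 to 0.65 in T/NK-like cells, and that of MHC class I processing from 1.22 to 1.83 in amacrine-like cells. The phototransduction median was -3.19 to -1.83 in ganglion-like cells. In myeloid-like cells homeostatic microglia genes had -1.18 to -0.52, activated genes 0.86 to 1.10 and immediate early genes -0.86 to -0.75, and T cell checkpoint genes 0.95 to 1.27 in T/NK-like cells.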

Other observations

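In myeloid-like cells, of 15 tested class I processing genes 0 passed (median log2 fold change 0.72), 10 had an unadjusted p under 0.05 and 2 were raised in DESeq2, beside 1585 and 102 of all 10566 genes tested. Without the right uninjected library 8 were raised in edgeR, and without the left uninjected one 6, in fits that raised 243 of 11958 and 345 of 11875 genes. B2M stood at 5809 and 4796 CPM in the uninjected and 7406 and 7312 CPM in the mScarlet myeloid-like cells (edgeR adjusted p = 0.194). GBP7, an interferon-induced GTPase, was raised, from 20.4 and 15.3 to 96.5 and 99.9 CPM (edgeR adjusted p = 0.0246). Of 13 tested complement genes 0 passed in edgeR (median 0.29), 5 had an unadjusted p under 0.05, and DESeq2 lowered 1. In T/NK-like cells the class I processing median was 0.06 over 15 genes, with 0 calls in edgeR or DESeq2 and 3 at an unadjusted p under 0.05.

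More genes known for position or retinoic acid in the developing retina, chosen after their values were seen, differed in the sums over all cells. BMP4, a signal of the dorsal retina, had 60 and 240 UMIs in the uninjected and 5 and 5 in the mScarlet libraries (edgeR adjusted p = 0.0156), and ALDH1A1, an enzyme of retinoic acid synthesis, 25 and 64 and 258 and 332 (edgeR adjusted p = 0.0132).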
